A study of Danio rerio with 8 samples.

Results

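RNA polymerase I and its dedicated factors were followed in endothelial cells of ddx21 mutant zebrafish through 10 genes, 5 encoding polymerase subunits (polr1a, polr1b, polr1c, polr1d and polr1e) and 5 encoding initiation or termination factors (rrn3, ubtf, ubtfl, taf1b and ttf1.1). The genes were chosen by their Ensembl name, with case ignored, among the 32520 genes of the deposited count table. The identifiers of ubtfl, polr1e, rrn3 and ttf1.1 were set beforehand, and each of the other names matched 1 identifier. All 10 genes passed the filter on low counts, which left 18549 genes for testing. The 4 mutant libraries are labelled ddx21_mutant and the 4 reference libraries ddx21_sibling. The labels do not give the allele, the genotype of the siblings or the number of embryos pooled. Every library came from embryos at 3 days post fertilisation that carried Tg(fli1a:nEGFP), a green nuclear reporter of endothelium, and Tg(5.2lyve1b:DsRed), a red reporter of veins and lymphatics. Cells positive for both reporters were sorted, which collects venous and lymphatic endothelium, and their RNA was sequenced in bulk. In such samples fewer cells of a type and less RNA per cell cannot be told apart.

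RNA polymerase I works in the nucleolus and makes a single product, the long precursor that is cut into most of the ribosomal RNAs. Polr1a and Polr1b form the catalytic core, while Polr1c and Polr1d form a dimer that also belongs to RNA polymerase III. Ubtf, an HMG box protein, and the SL1 complex, of which Taf1b is a subunit, mark the ribosomal gene promoter, and Rrn3 brings the polymerase to it. The Ttf1 protein binds terminators at the end of the transcribed region. In humans, mutations in POLR1B, POLR1C or POLR1D cause Treacher Collins syndrome, a disorder of the face. Loss of Polr1c or Polr1d in zebrafish disturbs the cranial skeleton. Ddx21, the RNA helicase mutated here, is itself a nucleolar protein, and in human cells it has been found on ribosomal genes and on snoRNAs.

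Library totals ran from 44807285 to 51173007 reads in mutants and from 38459219 to 50569923 in siblings. Genes with any read numbered 18051 (mutant 4) to 23518 (mutant 3) in mutants and 18064 (sibling 4) to 25329 (sibling 1) in siblings. Mutant 4 and sibling 4 thus had the fewest genes detected, although their totals were the highest. Genes that define the sorted cells were present in every library. The summed level of 5 endothelial genes (FLI1, kdrl, cdh5, TIE1 and EGFL7) was 1550 to 3835 CPM (reads scaled to a common library total) in mutants and 1953 to 3965 in siblings, and that of 6 venous and lymphatic genes was 1198 to 1482 CPM in mutants and 1421 to 1758 CPM in siblings. Transcripts of other cell types stood beside them. The 6 liver and yolk genes summed to 36.6 to 120 CPM in mutants and 291 to 1748 CPM in siblings, without overlap. That list was chosen with earlier results of these data known, so the lack of overlap is no independent result. Muscle genes summed to 1614 to 5633 CPM in mutants and 982 to 4433 CPM in siblings. Erythroid genes summed to 156 to 559 CPM in mutants and 248 to 935 CPM in siblings. Leukocyte genes summed to 125 to 241 CPM in mutants and 119 to 164 CPM in siblings. The 6 epidermal markers, each above 0 in every library, set replicates 1 and 2 apart from replicates 3 and 4. Their sum was 84926, 60030, 11726 and 4215 CPM in mutants 1 to 4, against 31246, 49971, 8339 and 2331 CPM in siblings 1 to 4. Mutant 1, mutant 4 and sibling 4 also received the smallest sample weights from limma-voom (0.62, 0.49 and 0.45). Values without these 3 libraries, and for replicates 1 and 2 or 3 and 4 alone, are therefore given beside each of the 10 genes. The labels name no batch.

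None of the 10 genes differed between mutants and siblings beyond the spread between libraries. The quasi-likelihood test of edgeR, applied to all 18549 genes, called 0 of the 10 at an adjusted p under 0.05, where it called 0 genes in all (0%). At an unadjusted p under 0.05 it again counted 0 of the 10, against 556 of all tested genes (3%), made up of 1.33% higher and 1.67% lower in mutants. The lowest unadjusted edgeR p among the 10 was 0.11, for ubtfl, and all 10 had an adjusted p of 0.9995. Of the 10 log2 fold changes, which are mutant over sibling throughout, 6 lay above 0, against 50.2% of all tested genes. In all 10 genes the mutant and sibling libraries overlapped. Over all tested genes, the mutants lay entirely above the siblings in 1.42% and entirely below them in 1.83%. The median log2 fold change was -0.03 for the 5 subunits and 0.28 for the 5 factors, against 0.0027 over all tested genes. The factor median depended on several libraries: it was -0.0048 without sibling 4, 0.08 without sibling 2, 0.17 without mutant 3 and 0.48 without mutant 4. The subunit median was -0.10 without mutant 1 and 0.16 without mutant 4. The median standard error was 0.31 for the 10 log2 fold changes, against 0.66 over all tested genes. The 95% interval given below for each gene holds the differences that these libraries leave possible, so a missed threshold does not show equal levels.

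**Figure D1:**
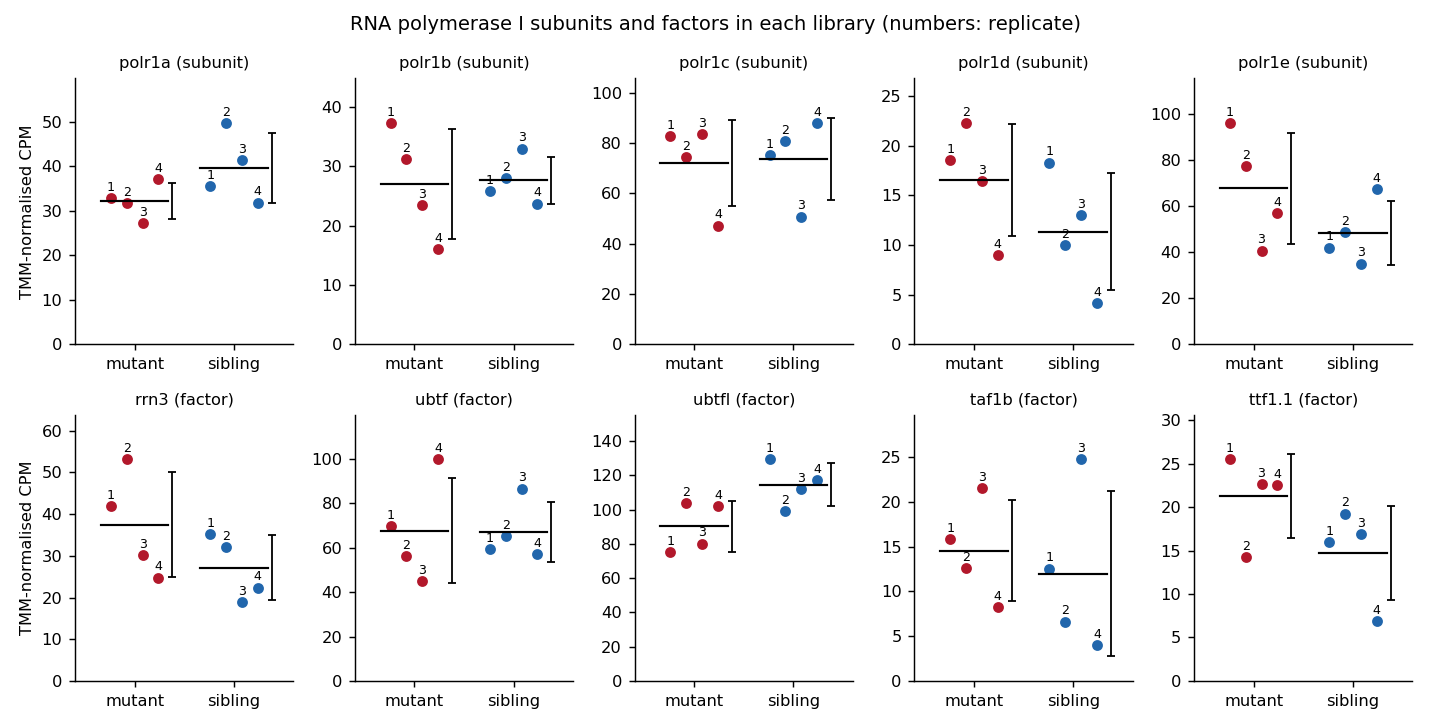
TMM-normalised CPM of each gene in the 4 mutant libraries (red) and the 4 sibling libraries (blue), with replicate numbers above the points, group means as horizontal lines and SDs as bars (n = 4 each). In every panel the mutant and sibling points overlap, and polr1d, taf1b and ttf1.1 are lowest in sibling 4.

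The catalytic core subunits were uneven, with a lower mean in mutants for polr1a and nearly equal means for polr1b. polr1a (ENSDARG00000098375), which encodes the largest subunit, had 32.9, 31.7, 27.2 and 37.1 CPM in mutants 1 to 4, against 35.5, 49.7, 41.3 and 31.8 CPM in siblings 1 to 4. Mutants averaged 32.2 ± 4.07 CPM and siblings 39.6 ± 7.82 CPM (SD over 4 libraries each, as below), so that the log2 fold change was -0.30 (SE 0.23, 95% interval -0.81 to 0.22, edgeR unadjusted p = 0.23). Mutants 1 to 3 lay below their siblings and mutant 4 above its own. The log2 fold change was -0.51 without the 3 libraries of low weight, -0.42 in pairs 1 and 2 alone and -0.18 in pairs 3 and 4 alone. polr1b (ENSDARG00000077469), which encodes the second largest subunit and shares the active site with Polr1a, had 37.4, 31.3, 23.4 and 15.99 CPM in mutants, against 25.8, 28.0, 33.0 and 23.7 CPM in siblings. Its means were 27.0 ± 9.31 and 27.6 ± 3.99 CPM (log2 -0.03, SE 0.30, interval -0.71 to 0.64). The mutants held both the highest and the lowest value of this gene, so that near-equal means came with a wider spread in mutants than in siblings. Its log2 fold change was 0.33 in pairs 1 and 2 alone and -0.52 in pairs 3 and 4 alone, with opposite signs, and -0.07 without the 3 libraries of low weight. The ratio of polr1b to polr1a reads was 1.14, 0.989, 0.861 and 0.431 in mutants 1 to 4 and 0.727, 0.563, 0.799 and 0.746 in siblings 1 to 4. Mutant 1 and mutant 4 lay at its ends. Without transcript lengths such a ratio of reads is no ratio of molecules, and only its change between libraries can be read.

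The dimer that RNA polymerases I and III share was uneven too. polr1c (ENSDARG00000039400) had 82.6, 74.5, 83.6 and 47.1 CPM in mutants, against 75.1, 80.9, 50.7 and 88.0 CPM in siblings. Its means of 71.9 ± 17.0 and 73.7 ± 16.2 CPM gave a log2 fold change of -0.03 (SE 0.25, interval -0.60 to 0.53). Mutant 4 and sibling 3 were low, and the other 6 libraries lay between 74.5 and 88.0 CPM. Leaving out the 3 libraries of low weight, mutant 4 among them, gave a log2 fold change of 0.21, while pairs 1 and 2 gave -0.010 and pairs 3 and 4 gave -0.08. polr1d (ENSDARG00000037570), the partner of polr1c, had 18.6, 22.3, 16.4 and 8.96 CPM in mutants, against 18.3, 9.96, 13.0 and 4.15 CPM in siblings. It was higher in the mutant of 4 of 4 pairs, as were 8% of all tested genes. The means were 16.6 ± 5.63 and 11.4 ± 5.92 CPM (log2 0.54, SE 0.49, interval -0.54 to 1.63, edgeR unadjusted p = 0.29). In pair 1 the difference was close to 0, and sibling 1 lay above mutants 3 and 4. The value was 0.51 without the 3 libraries of low weight, 0.51 in pairs 1 and 2 and 0.57 in pairs 3 and 4, and with single libraries left out it ran from 0.27 (sibling 4) to 0.88 (sibling 1). Reads of polr1c outnumbered those of polr1d 4.45, 3.34, 5.09 and 5.26 times in mutants 1 to 4 and 4.101, 8.12, 3.90 and 21.2 times in siblings 1 to 4. Sibling 4 stood highest in that ratio, with 193 reads of polr1d.

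Among the subunits polr1e had the lowest p. The gene (ENSDARG00000006434) encodes the PAF53 subunit, which has no counterpart among the subunits of RNA polymerase II, and had 96.4, 77.5, 40.8 and 57.0 CPM in mutants, against 42.0, 48.8, 35.1 and 67.6 CPM in siblings. Mutants 1 and 2 lay above all siblings, whereas mutant 3 lay below 3 of them. The means were 67.9 ± 24.2 and 48.4 ± 14.0 CPM (log2 0.49, SE 0.31, interval -0.20 to 1.18, edgeR unadjusted p = 0.14). In pairs 1 and 2 alone the log2 fold change was 0.92 (edgeR unadjusted p = 0.014, adjusted p = 0.72), and in pairs 3 and 4 alone it was -0.07 (unadjusted p = 0.88). The difference between pairs 1 and 2 and pairs 3 and 4 was not tested. Without the 3 libraries of low weight the value was 0.51, and without mutant 1 it was 0.28. Mutants 1 and 2 were also the libraries with the highest sums of epidermal markers, at 84926 and 60030 CPM, and the part of those transcripts in the polr1e values was not tested.

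**Figure D2:**
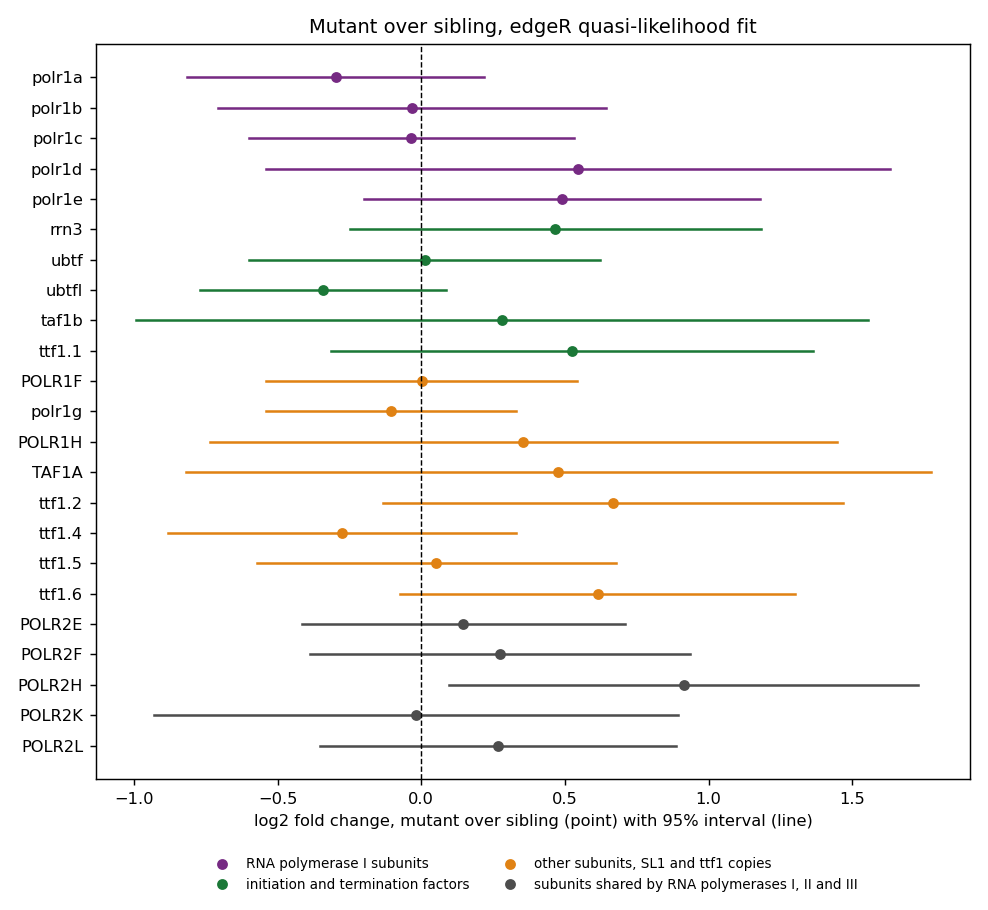
Log2 fold changes of mutants over siblings (points) with 95% intervals (lines) from the edgeR fit of all tested genes, n = 4 libraries per group, for the 10 genes and for further genes of RNA polymerase I and its shared subunits. All intervals of the 10 genes include 0, from ubtfl at -0.34 to polr1d at 0.54, and among the other genes only that of POLR2H lies above 0.

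rrn3 (ENSDARG00000102997), which encodes the factor that joins the polymerase to the promoter complex and answers to growth signals in mammalian cells, was higher in the mutant of 4 of 4 pairs. Its levels were 41.9, 53.1, 30.1 and 24.8 CPM in mutants 1 to 4, against 35.2, 32.1, 18.8 and 22.4 CPM in siblings 1 to 4. The differences within pairs were 0.25, 0.72, 0.66 and 0.15 on the log2 scale, all in the same direction. Mutants 3 and 4 lay below siblings 1 and 2. With means of 37.5 ± 12.6 and 27.1 ± 7.78 CPM the log2 fold change was 0.47 (SE 0.32, interval -0.25 to 1.18, edgeR unadjusted p = 0.18). Blocking on the replicate number gave 0.45 (edgeR unadjusted p = 0.089, adjusted p = 0.91), and without single libraries it ran from 0.25 to 0.63. It was 0.55 without the 3 libraries of low weight, 0.47 in pairs 1 and 2 and 0.42 in pairs 3 and 4. Only rrn3 and polr1d of the 10 genes were higher in 4 of 4 pairs, and 0 of the 10 were lower in 4 of 4 pairs, against 8% and 9.53% of all tested genes.

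The HMG box factor is represented by a pair of genes that gave different values. ubtf (ENSDARG00000035066) had 69.8, 56.4, 45.0 and 99.8 CPM in mutants, against 59.4, 65.3, 86.7 and 57.2 CPM in siblings. The means of 67.7 ± 23.7 and 67.2 ± 13.4 CPM were nearly equal (log2 0.01, SE 0.27, interval -0.60 to 0.62), and mutants again held the highest and the lowest value. Without the 3 libraries of low weight, which include mutant 4, the log2 fold change was -0.46, and it was -0.0038 in pairs 1 and 2 and 0.0092 in pairs 3 and 4. ubtfl (ENSDARG00000038780), the gene named after ubtf, had 75.0, 104, 80.2 and 102 CPM in mutants, against 129, 99.0, 112 and 117 CPM in siblings. It was the gene with the lowest p of the 10, with means of 90.3 ± 14.8 and 114 ± 12.6 CPM (log2 -0.34, SE 0.19, interval -0.77 to 0.09, edgeR unadjusted p = 0.11). Mutants 2 and 4 lay above sibling 2, and the 2 groups overlapped only in these 3 libraries. The value stayed below 0 in 18 of 18 alternative analyses, from -0.41 to -0.26. It was -0.29 without the 3 libraries of low weight, -0.38 in pairs 1 and 2 and -0.33 in pairs 3 and 4. These alternatives reuse the same libraries and are no independent support. The log2 ratios within pairs 1 to 4 were -0.78, 0.07, -0.48 and -0.20, with pair 2 above 0. The ratio of ubtf to ubtfl reads was 0.929, 0.543, 0.561 and 0.978 in mutants and 0.459, 0.660, 0.774 and 0.487 in siblings, with overlapping groups. How reads were assigned between these related genes is not given in the sources used here.

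taf1b (ENSDARG00000028937), of the SL1 complex, varied most. It had 15.8, 12.6, 21.6 and 8.23 CPM in mutants, against 12.5, 6.64, 24.7 and 4.02 CPM in siblings, so that the siblings held the highest and the lowest value. From its lowest to its highest library the gene spanned 6.16-fold, against 1.72-fold for ubtfl. The means were 14.6 ± 5.62 and 12.0 ± 9.22 CPM (log2 0.28, SE 0.57, interval -0.99 to 1.55, edgeR unadjusted p = 0.63), and the siblings at its ends moved the value most: it was -0.0048 without sibling 4 and 0.90 without sibling 3. Without the 3 libraries of low weight it was 0.23, in pairs 1 and 2 it was 0.54 and in pairs 3 and 4 it was 0.05.

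ttf1.1 (ENSDARG00000091967), a copy of the termination factor gene, had 25.5, 14.3, 22.6 and 22.5 CPM in mutants, against 15.95, 19.2, 16.9 and 6.89 CPM in siblings. Mutants 1, 3 and 4 lay above every sibling and mutant 2 below 3 of the 4. The means were 21.2 ± 4.84 and 14.8 ± 5.42 CPM (log2 0.52, SE 0.38, interval -0.31 to 1.36, edgeR unadjusted p = 0.19). With single libraries left out the value ran from 0.29 (sibling 4) to 0.68 (sibling 2). It was 0.10 without the 3 libraries of low weight, 0.16 in pairs 1 and 2 and 0.92 in pairs 3 and 4. The zebrafish genome holds several neighbouring ttf1 copies, and in the RefSeq assembly GRCz12tu ttf1.1 lies next to ttf1.2. Of the further copies, ttf1.6 had a log2 fold change of 0.61 (SE 0.31, edgeR unadjusted p = 0.075) and ttf1.2 one of 0.67 (SE 0.36, unadjusted p = 0.093). ttf1.4 and ttf1.5 stood at -0.28 and 0.05, and ttf1.3 was too low to be tested, at 0.28 CPM in mutants and 0.22 in siblings. Of all reads on the 6 copies, ttf1.1 took 18.5%, 14.6%, 17.4% and 18.6% in mutants and 17.9%, 18.3%, 14.9% and 7.34% in siblings. Sibling 4 was therefore low in ttf1.1 relative to its neighbours and not through all copies alike. Reads that match several copies may have been split or dropped, which leaves the level of each copy uncertain.

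**Figure D3:**
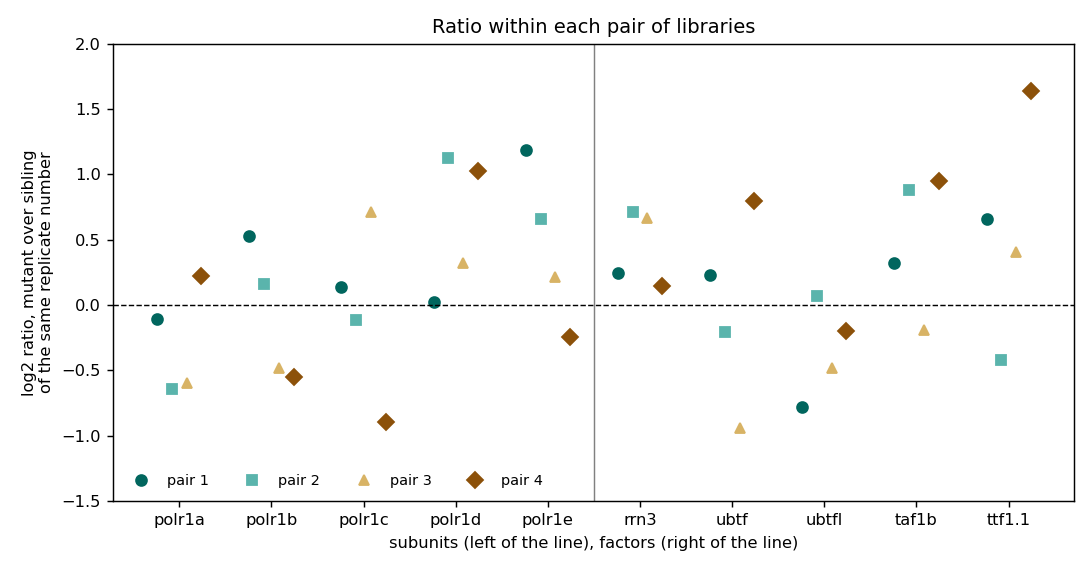
Log2 ratio of TMM-normalised CPM (with 0.5 CPM added) between the mutant and the sibling of the same replicate number, for each gene and each of the 4 pairs. Of 40 ratios 25 lie above 0. polr1d and rrn3 are above 0 in all 4 pairs, while polr1b is above 0 in pairs 1 and 2 and below 0 in pairs 3 and 4.

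Within pairs, 8, 6, 5 and 6 of the 10 genes were higher in the mutant of pairs 1 to 4. The median within-pair log2 ratio of the subunits was 0.14, 0.16, 0.21 and -0.24 in these pairs, and that of the factors was 0.25, 0.07, -0.19 and 0.80. Pair 4 held the lowest value of the subunits and the highest of the factors. For polr1b the ratios were 0.53, 0.16, -0.49 and -0.55, higher in the mutants of pairs 1 and 2 and lower in those of pairs 3 and 4. For ttf1.1 they ran from -0.42 in pair 2 to 1.64 in pair 4, the widest span of the 10. In pairs 1 and 2 alone the subunit median was 0.33, and in pairs 3 and 4 alone it was -0.08. Without mutant 1, mutant 4 and sibling 4 it was 0.21, and that of the factors was 0.10.

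The summed level of the 5 subunits was highest in mutants 1 and 2 and lowest in mutant 4. It was 268, 237, 191 and 166 CPM in mutants 1 to 4, against 197, 217, 173 and 215 CPM in siblings 1 to 4. In 7 of the 8 libraries these sums stood in the order of the epidermal marker sums, from mutant 1 at the top to mutant 4. Sibling 4 was the exception, with the fewest epidermal transcripts and a middle value of the subunits. The summed factors, at 228, 240, 199 and 257 CPM in mutants and 252, 222, 259 and 208 CPM in siblings, did not share that order. The order was not particular to the subunits. Regulators of ribosomal gene transcription summed to 4463, 4279, 3557 and 3256 CPM in mutants, against 3056, 4250, 3259 and 3251 CPM in siblings. That list followed the epidermal order except in sibling 1. The summed subunits particular to RNA polymerase II ran the other way, from 398 CPM in mutant 1 to 670 CPM in mutant 4. That sum mostly followed POLR2B, which had 215 CPM in mutant 1 and 512 CPM in mutant 4. The other genes of that list had no common order. POLR2D had 45.2 CPM in mutant 1 and 35.1 CPM in mutant 4, and POLR2G had 8.24 and 24.0 CPM. Sums do not speak for each gene. The factor rrn3 had 32.1 to 53.1 CPM in replicates 1 and 2 and 18.8 to 30.1 CPM in replicates 3 and 4. How many of all tested genes separate these replicates in the same way is not given here. The subunit gene polr1a was highest in sibling 2 and lowest in mutant 3. The 6 proliferation genes summed to 886 to 1061 CPM in mutants and 625 to 1026 CPM in siblings, with sibling 4 lowest there as well. The part of epidermal cells or of dividing cells in the levels of the subunits or the factors was not tested.

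**Figure D4:**
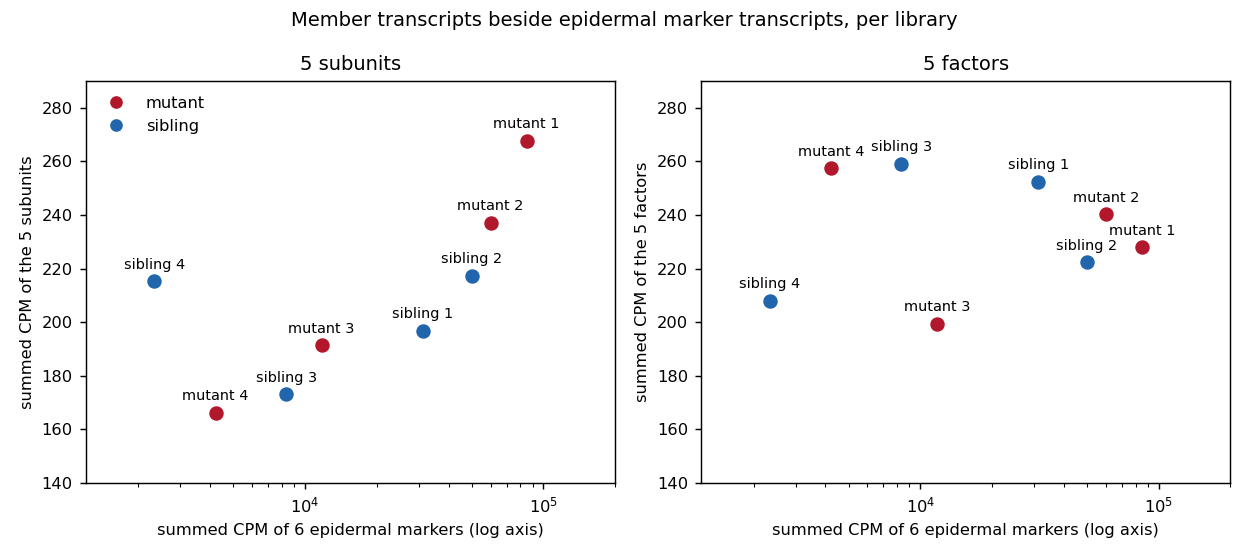
Summed TMM-normalised CPM of the 5 subunits (left panel) and the 5 factors (right panel) on the vertical axes, which do not start at 0, against the summed CPM of 6 epidermal markers on a log axis, 1 point per library (mutants red, siblings blue). Subunit sums run from 166 CPM in mutant 4 to 268 CPM in mutant 1 in the order of the epidermal sums except for sibling 4, while the factor sums show no such order.

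The 10 transcripts did not vary as a unit. Over the 8 libraries the Pearson correlation of log2 CPM between 2 of them had a median of 0.01 over 45 gene pairs, with 23 above 0. It had a median of 0.05 among subunits, 0.04 among factors and -0.09 between subunits and factors. The ends were polr1d with taf1b at 0.76 and polr1c with ubtf at -0.85. These values share library depth and cell makeup and describe 8 points only. Among 11344 other genes that averaged 5 CPM or more, the 5 most like the mean profile of the 10 were EBNA1BP2 (r = 0.988), a nucleolar assembly factor of the large ribosomal subunit, DUSP7 (r = 0.985), a phosphatase of ERK, HIC2 (r = 0.983), a zinc finger repressor, WNT7A (r = 0.982), a secreted Wnt ligand, and NOC2L (r = 0.975), a nucleolar protein. EBNA1BP2 had 157, 133, 95.4 and 85.8 CPM in mutants 1 to 4, against 120, 120, 106 and 72.8 CPM in siblings 1 to 4. Mutant 1 was highest and sibling 4 lowest, as in the mean profile of the 10. WNT7A had 136, 99.3, 21.2 and 17.9 CPM in mutants, against 70.7, 88.3, 57.2 and 9.41 CPM in siblings. In the mean profile and in each of the 5 genes, all libraries of replicates 1 and 2 lay above all those of replicates 3 and 4. The share of all tested genes that do so is not given here. The 5 were picked as the highest of many genes compared over few libraries, and no test was made of them.

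Other genes of the same machinery were looked up as lists. Besides the ttf1 copies, the list of further RNA polymerase I genes held POLR1F, polr1g and POLR1H, which encode subunits, and TAF1A of the SL1 complex. Of its 8 tested genes 0 passed the test and 0 were at an unadjusted p under 0.05, while 6 were above 0 and the median was 0.20. The subunits that RNA polymerases I, II and III share had 4 of 5 values above 0 and a median of 0.27. POLR2H, among them, which encodes the RPABC3 subunit, had 61.4, 50.0, 67.4 and 39.4 CPM in mutants, against 33.3, 32.5, 38.6 and 11.3 CPM in siblings. Each mutant lay above all siblings. The log2 fold change was 0.91 (SE 0.37, edgeR unadjusted p = 0.032, adjusted p = 0.9995), which does not pass over all genes, and it was 0.65 without sibling 4.

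The genes that belong to the other polymerases gave similar summaries. RNA polymerase III, which makes transfer RNAs and 5S ribosomal RNA, had 17 of 24 tested genes above 0 and a median of 0.15, and 0 passed the test at either threshold. Its lowest p belonged to POLR3D (log2 1.22, SE 0.66, edgeR unadjusted p = 0.096) and POLR3C (log2 0.53, SE 0.30, unadjusted p = 0.11), which encode subunits found in that polymerase alone. These were the only 2 of the 24 that were higher in the mutant of 4 of 4 pairs, as were 8% of all tested genes. The subunits particular to RNA polymerase II had 4 of 7 values above 0 and a median of 0.07, with POLR2C at -0.25 (SE 0.24) and POLR2G at 0.45 (SE 0.46). Of these lists each had its median within 0.3 of 0, and no list was tested against another.

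Regulators of ribosomal gene transcription and chromatin had a median of -0.02 and 12 of 26 values above 0, with 0 called. DDX21 (ENSDARG00000063626), the mutated gene, had 233, 266, 170 and 217 CPM in mutants, against 245, 364, 337 and 301 CPM in siblings (log2 -0.50, SE 0.21, edgeR unadjusted p = 0.039). The groups overlapped through mutant 2 and sibling 1, and the transcript was present in every mutant library. smarca5, which encodes a chromatin remodeller, had 89.8, 62.5, 104 and 62.6 CPM in mutants, against 48.4, 64.8, 57.6 and 31.5 CPM in siblings (log2 0.65, SE 0.28, edgeR unadjusted p = 0.041). Mutants 2 and 4 lay below sibling 2. The gene tcof1, whose protein Treacle recruits RNA polymerase I, stood at 36.3 ± 8.96 CPM in mutants and 37.0 ± 13.7 CPM in siblings (log2 -0.03, SE 0.33).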

How the data were processed

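The submitters' processing notes name Subread 2.0.0 and featureCounts for the build GRCz11, besides FastQC and edgeR. For their settings, the strand mode and the annotation release, the sources used here give nothing. The authors deposited raw read counts per gene and a log2 table. All 260160 of its deposited log2 values equalled log2(CPM + 1) from the counts, with CPM here by the library total without TMM (tolerance 1e-09). The log2 table therefore holds no further normalisation, although it is labelled as batch-corrected.

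Counts were filtered (filterByExpr, minimum count 10, minimum total 15), scaled by TMM and fitted with edgeR 4.0.16 (robust quasi-likelihood, with no term but the group; R 4.3.3), with limma 3.58.1 and DESeq2 1.42.0 as alternatives. All p-values are two-sided, and adjusted p-values follow Benjamini-Hochberg over all 18549 tested genes. The script was tested on simulated data. Intervals use the 95% level. The median trended dispersion was 0.61. Levels of different genes were not compared, since no transcript lengths were used here.

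The members and lists were chosen with earlier results of these data known. Named were all members, the 5 genes most alike and, of each further list of polymerase genes or regulators, those at an unadjusted p under 0.05 or else the 2 of lowest p. Marker lists of cell types were used for their sums, except that the level of PROX1 is given as well. tcof1, ttf1.3, ttf1.4, ttf1.5, POLR2B, POLR2D and the genes of the figure were named besides. A result on 1 further list gene is not reported here. No identifier was matched for 8 symbols of all lists, marker lists included, among them taf1c and taf1d. Nothing says whether replicates came from separate clutches, so p-values reflect only how these libraries spread, which may be partly technical. Libraries of 1 group were not duplicates: their counts gave a chi-square of 112 to 852 per degree of freedom. Deviations from the group means correlated at 0.22, 0.28, 0.18 and 0.30 within pairs 1 to 4, so the replicate numbers were taken to pair the libraries, from the data and not from the labels. Between unlike numbers the values ran from -0.27 to 0.15. Mutant 1 with sibling 2 and mutant 2 with sibling 1 both gave 0.15, and mutant 4 with sibling 3 gave 0.10. How far the within-pair values reflect the split of replicates 1 and 2 from 3 and 4 was not tested.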

Additional observations from a re-analysis of the deposited data

How the results depend on the processing

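With the replicate block edgeR again called 0 genes, the subunit median was -0.04 and the factor median 0.45, 5 of the 10 log2 fold changes lay above 0, and it changed no call. With each library left out in turn, the subunit median lay between -0.10 (mutant 1 left out) and 0.16 (mutant 4 left out), the factor median from -0.0048 without sibling 4 to 0.48 without mutant 4, and the number of the 10 above 0 from 5 to 7. Members at an unadjusted p under 0.05 numbered 0 to 1 there, the 1 being polr1e without mutant 3 (edgeR unadjusted p = 0.048). Without mutant 1, mutant 4 and sibling 4 together the subunit median was 0.21. In pairs 1 and 2 alone, a split chosen after earlier results were known, it was 0.33, with 1 member at an unadjusted p under 0.05 and 1 gene called in all. Over all genes DESeq2 called 62, limma on the deposited log2 values 2 and edgeR without the filter 1, and each called 0 of the 10; without the filter the median of all genes was -0.11. The causes were not tested. The direction held in 18 of 18 alternatives for polr1a, polr1d, rrn3, ubtfl and ttf1.1. It turned in 1 for polr1e (pairs 3 and 4 alone) and taf1b (without sibling 4). It turned in 4, 5 and 10 for polr1b, polr1c and ubtf, whose values are near 0. Since the alternatives reuse the same libraries, an unchanged direction is no independent support. The lowest counts of polr1d and taf1b were 193 and 187 reads, both in sibling 4, a library with few genes detected. What limits the precision of these genes was not tested.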

Other observations

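Some regulators outside the rule for named genes were looked at after their values had been seen. SIRT7, a deacetylase that binds RNA polymerase I in human cells, had 2.12 ± 1.78 CPM in mutants and 5.39 ± 2.53 CPM in siblings (SD, n = 4 each; log2 -1.34, SE 0.91, edgeR unadjusted p = 0.17), and mutants were lower in 4 of 4 pairs. Its within-pair log2 ratios were -1.53, -0.0097, -0.60 and -3.30 in pairs 1 to 4, with almost no difference in pair 2. PHF8, a histone demethylase, had 9.36 ± 3.13 CPM in mutants and 16.8 ± 5.43 CPM in siblings (log2 -0.85, SE 0.42, edgeR unadjusted p = 0.072), also lower in 4 of 4 pairs. nolc1, whose protein Nopp140 binds RNA polymerase I in human cells, had 86.0 ± 27.1 CPM in mutants and 65.5 ± 19.9 CPM in siblings (log2 0.39, SE 0.29, edgeR unadjusted p = 0.21) and was higher in 4 of 4 pairs. Its within-pair log2 ratios were 0.81, 0.02, 0.65 and 0.08 in pairs 1 to 4, with little difference in pairs 2 and 4. None of these regulators passed over all genes. Of the 26 regulators, 5 were lower and 2 were higher in the mutant of 4 of 4 pairs, against 9.53% and 8% of all tested genes. The 5 include DDX21, the mutated gene, and baz2a, which differed little (log2 -0.12, edgeR unadjusted p = 0.72). No test was made of these counts.

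No library of either group stood out from its group in any of the 10 genes by Dixon's test for 4 samples, which was applied to 20 sets of values. With 4 values the test flags a library only past a critical ratio of 0.829. It can therefore miss extreme libraries, and its result does not show that the libraries were alike.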
